A study of Mus musculus with 8 samples.

Results

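Cell cycle genes were followed in hearts of newborn mice with and without connexin43, the Gja1 product, a gap junction protein that couples heart muscle cells electrically. The set is a list of 48 genes by symbol: 12 of DNA replication, 22 of mitosis and chromosome structure, 12 cyclins, cyclin-dependent kinases and E2f1, and 2 inhibitors of those kinases. A gene counted as measured when at least 3 arrays of each genotype had a value for it. This held for 42 of the 48, read by 78 probes, among the 7603 named genes and 11804 features (named genes plus unnamed cDNAs) that passed the same limit. Measured were 11 replication genes, 21 mitosis genes, 9 cyclins and kinases, and 1 inhibitor, Cdkn1a. Cdc45, Aurkb, Ccnb1, Ccne2, E2f1 and Cdkn1b had no probe with their symbol alone and are not analysed here.

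The study compared wildtype with connexin43 null neonatal C57BL mice, the day of age not being stated in the labels. Each genotype had 4 arrays, and each array carried Cy3-labelled cDNA of 1 pool of 3 hearts. All 8 arrays shared 1 Cy5-labelled reference of adult C57BL tissues of both sexes, among them spleen, gonads and stomach, in which cells also divide. A value is the log2 ratio of heart over reference after the median of its array was set to 0, so that 0 is the array's middle spot and not an equal amount. Whole hearts were used, so fewer cells of a type and less RNA per cell cannot be told apart in any value here.

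A dividing cell licenses its origins with the Mcm helicase, copies its DNA in S phase, and then condenses and separates the copies in mitosis. Cyclins switch on the cyclin-dependent kinases that drive these steps, and Cdkn1a, the p21 protein, blocks those kinases and is a classical target of p53. In mice, heart muscle cells still enter the cycle around birth and largely leave it within the first days of life. Fibroblasts and endothelial cells of the heart keep dividing. E2F factors are known for driving replication genes, and the DREAM and MuvB complexes for driving or silencing mitosis genes through the CHR element, often beside CCAAT boxes bound by NF-Y.

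Promoters are shown because the motifs differ between roles. A stretch is printed for the first gene of each role, in order of p-value, whose window held the element named for that role, each the 250 bases before the RefSeq start on GRCm38.p6, in the direction of the gene. Capitals mark the motif matches found, on either strand. Mcm6 (chr1:128359706-128359955, minus strand) is a helicase subunit, Cdc20 (chr4:118437344-118437593, minus strand) activates the ligase that starts anaphase, Cdk1 (chr10:69352913-69353162, minus strand) is the mitotic kinase, and Cdkn1a lies at chr17:29090729-29090978 on the plus strand.
Mcm6: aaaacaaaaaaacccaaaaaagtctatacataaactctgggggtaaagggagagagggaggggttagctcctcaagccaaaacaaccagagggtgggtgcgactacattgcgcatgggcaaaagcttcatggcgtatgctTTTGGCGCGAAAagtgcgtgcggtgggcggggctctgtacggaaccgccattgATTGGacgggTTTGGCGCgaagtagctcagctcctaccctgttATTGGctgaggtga
Cdc20: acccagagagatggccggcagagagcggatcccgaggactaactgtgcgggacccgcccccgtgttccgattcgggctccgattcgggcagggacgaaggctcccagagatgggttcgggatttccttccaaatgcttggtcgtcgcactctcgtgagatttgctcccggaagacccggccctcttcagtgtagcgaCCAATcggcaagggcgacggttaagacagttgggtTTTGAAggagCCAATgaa
Cdk1: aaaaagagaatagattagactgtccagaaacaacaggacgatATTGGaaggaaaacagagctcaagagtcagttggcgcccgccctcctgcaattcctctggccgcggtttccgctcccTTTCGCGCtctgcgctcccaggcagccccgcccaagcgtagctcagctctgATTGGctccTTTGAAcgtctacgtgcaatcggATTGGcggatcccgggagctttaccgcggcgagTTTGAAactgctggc
Cdkn1a: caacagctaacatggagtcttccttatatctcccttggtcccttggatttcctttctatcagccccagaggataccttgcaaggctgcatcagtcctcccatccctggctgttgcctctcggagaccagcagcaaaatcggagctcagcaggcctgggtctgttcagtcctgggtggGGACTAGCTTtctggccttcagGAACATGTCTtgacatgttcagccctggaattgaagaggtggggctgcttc
In Mcm6 the E2F matches begin 110, 106 and 47 bases before the start, the first and the second overlapping, with CCAAT boxes at 57 and 14. Cdc20 holds 1 CHR, 18 bases before the start, and CCAAT boxes at 53 and 8. Cdk1 holds an E2F match at 131, CHR matches at 71 and 15, and CCAAT boxes at 208, 80 and 48. Cdkn1a has a pair of p53 decamers at 73 and 51, and the window of its other annotated start has none.

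The same motifs were counted in windows of 300 bases, 250 before and 50 after the start, which RefSeq gave for 35 of the 42 measured genes and for 27025 genes in all. E2F was searched as TTTCCCGC, TTTCGCGC, TTTGCCGC or TTTGGCGC, CHR as TTTGAA or TTCGAA, the CCAAT box by its 5 letters and the p53 decamer by its known consensus, on both strands, with overlaps between motifs allowed. E2F letters stood in the windows of 5 of 10 replication genes, in 0 of 18 mitosis genes, in 2 of 6 cyclins and kinases, and in 2.60% of all genes. CHR letters stood in 13 of 18 mitosis genes, 72.2%, against 2 of 10 replication genes and 21.7% of all genes. Each of those 13 also held a CCAAT box, a combination found in 8.61% of all genes. The p53 decamer was present in 17.1% of the measured members and in 9.55% of all genes. A match describes the letters and is not a bound site, and these arrays hold no measurement of binding.

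Before the genotypes are compared, the level against the reference tells how far these genes stand out in newborn heart. The wildtype mean lay above 0 for 37 of the 42 genes, 88.1%, against 53.1% of all features. On every array with a value, 22 of the 42 lay above 0, 52.4% against 19.1% of features. Rrm2, the small subunit of ribonucleotide reductase, had the highest wildtype mean at 0.89 ± 0.31 (SD, n = 4), followed by Ccna2, cyclin A2, at 0.69 ± 0.22 (SD, n = 4) and Mcm3, a helicase subunit, at 0.68 ± 0.18 (SD, n = 4). Lowest was Aurka, the kinase of the spindle poles, at -0.25 ± 0.14 (SD, n = 4), and the 3 highest overlap within their SD. These are ratios to adult tissues, where dye bias remains, so the order of genes is not an order of transcript abundance.

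**Figure D1:**
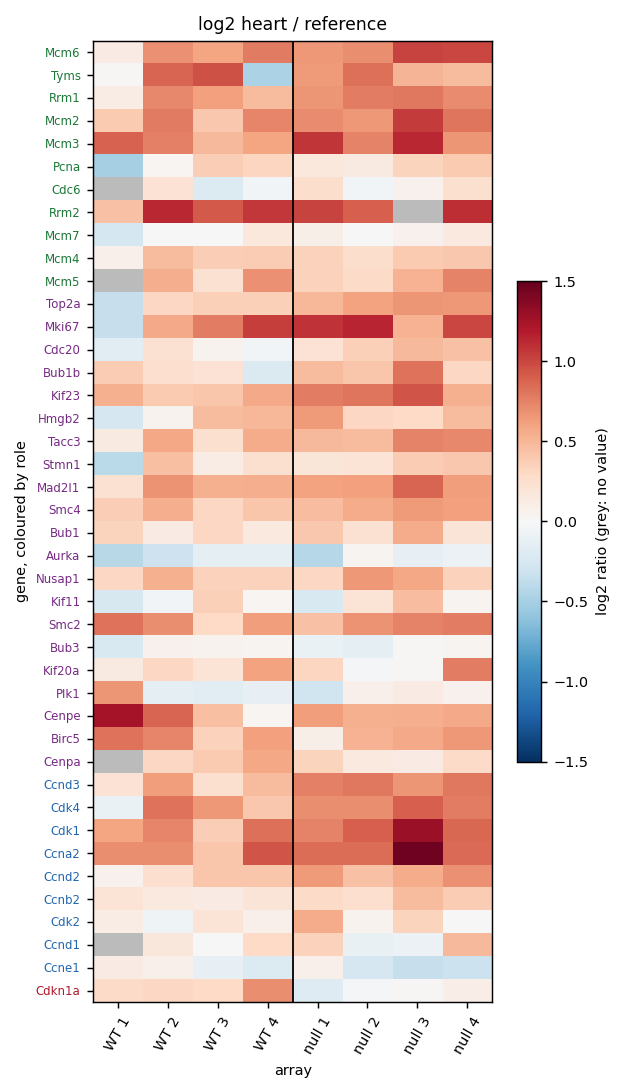
Colour gives the log2 ratio of heart over reference, centred per array, for the 42 measured genes (rows, by role) on the 4 wildtype and 4 null arrays (columns), with grey for no value. Most rows are above 0, and wildtype 1 has the lowest mean over the genes, 0.18.

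No gene passed in the comparison of null with wildtype. Of the 42, 0 were called by limma at an adjusted p under 0.05, as were 0 of 11804 features (0% of all tested). The lowest adjusted p among the 42 was 0.550 by limma, for Cdkn1a. At an unadjusted limma p under 0.05, 6 of the 42 were higher in null, 14.3% against 2.10% of all features, and 1 was lower, 2.38% against 6.13% of features. Null values lay above every wildtype value for 4 genes, Ccnd3, Top2a, Ccnd2 and Ccnb2, 9.52% against 2.00% of features. They lay below every wildtype value for Cdkn1a alone, 2.38% against 5.54%.

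Counted by sign alone, the null mean was the higher one for 10 of 11 replication genes, 15 of 21 mitosis genes and 7 of 9 cyclins and kinases, while 40.9% of all features were higher. Median log2 differences, null minus wildtype, were 0.20 for replication genes, 0.12 for mitosis genes and 0.29 for cyclins and kinases, against -0.039 for all features. Without centring, the arrays' deposited scale put the median of all features at -0.18. On that scale 22 of the 42 genes were higher, 52.4% against 15.0% of all features. The medians were then 0.064, -0.042 and 0.13 for those 3 roles. So the sign for mitosis genes flips on the deposited scale. Each role stays above the median of all features, but centring moves all genes of an array alike and could hardly change that order. No test was run on these counts, and all genes share the same 8 arrays.

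**Figure D2:**
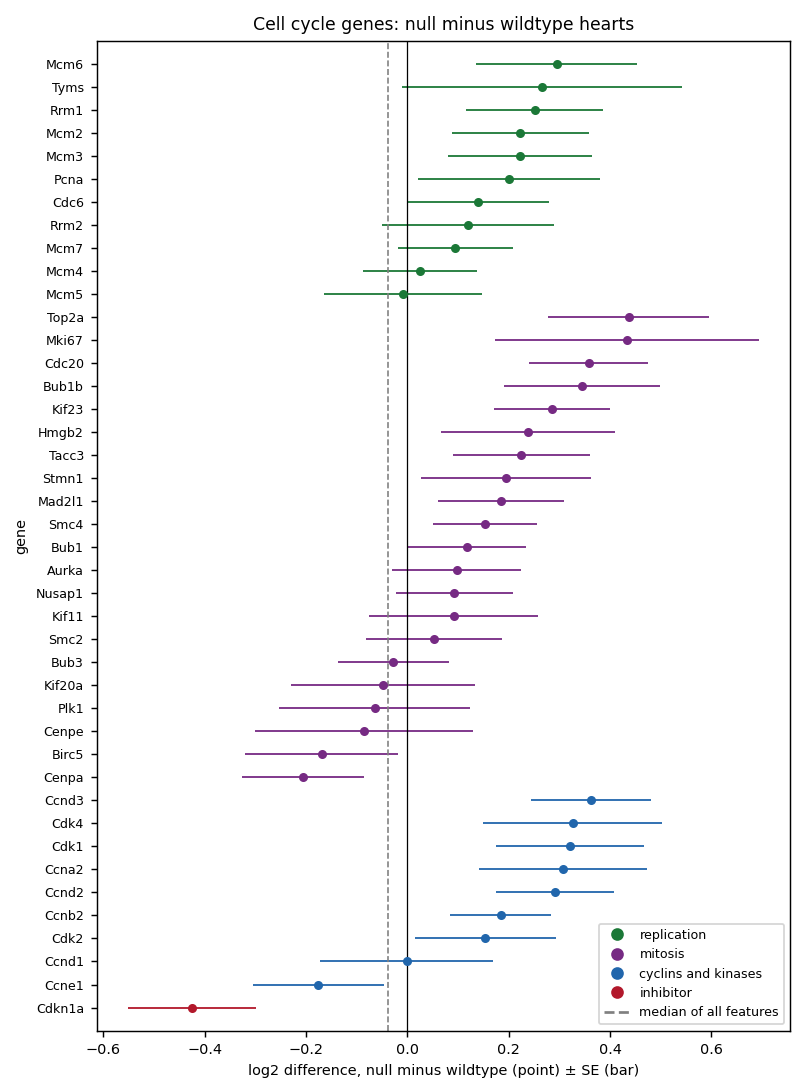
Each point is the null minus wildtype log2 difference of 1 gene with its standard error, ordered within roles, and the dashed line is the median of all features, -0.039. Replication genes span -0.01 to 0.29, mitosis genes -0.21 to 0.44 and cyclins and kinases -0.18 to 0.36, with Cdkn1a at -0.43.

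Wildtype 1 moved with these counts. It had values at 12971 of 28704 spots, fewer than the 17879 to 23929 of the others, and a median rank correlation with the other arrays of 0.576 against at least 0.663. Among the 37 genes with values on all arrays it was the lowest of the 8 for 19, 51.4%, against 25.7% of 8238 features, and null 3 was the highest for 17, 45.9% against 988 of 8238 features. The mean over all measured genes was 0.18, 0.41, 0.32 and 0.37 on wildtype arrays 1 to 4 and 0.42, 0.41, 0.51 and 0.49 on null arrays 1 to 4. Without wildtype 1, 32 of the 42 remained higher by sign, though replication genes went from 10 to 8 of 11 and the medians became 0.13, 0.12 and 0.20 for the 3 roles. At an unadjusted limma p under 0.05, 5 were then higher, 11.9% against 2.45% of features, and 5 had groups apart upward, 11.9% against 3.06%. What sets wildtype 1 apart was not tested.

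**Figure D3:**
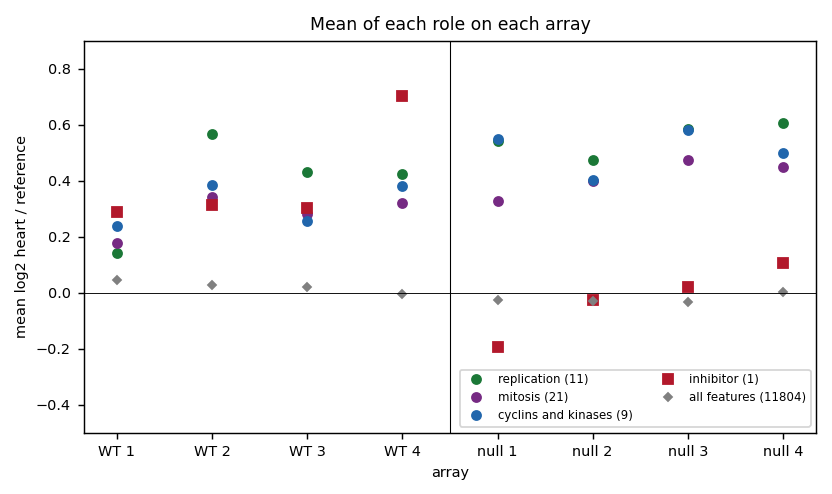
Points are the mean log2 ratio of heart over reference over the genes of each role, and over all features, on each of the 8 arrays. Wildtype 1 is the lowest array for replication genes at 0.14, and null means of cyclins and kinases sit at 0.40 to 0.58 against 0.24 to 0.38 in wildtype.

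Among the replication genes, no group stood apart. Mcm6 read 0.12, 0.69, 0.59 and 0.78 on wildtype arrays 1 to 4 and 0.65, 0.69, 1.02 and 1.00 on null arrays. Wildtype 1 is far below the others and the groups overlap, with a difference of 0.29 (SE 0.16, adjusted p 0.620 by limma), or 0.15 without wildtype 1, and 0.21 and 0.25 on its probes. Mcm2, another helicase subunit, read 0.39, 0.78, 0.41 and 0.73 in wildtype and 0.70, 0.65, 1.05 and 0.80 in null. Its groups overlap, the difference was 0.22 (SE 0.14, adjusted p 0.660), 0.14 without null 3, and its 2 probes gave 0.42 and -0.07.

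Rrm1, the large subunit of ribonucleotide reductase, read 0.12, 0.72, 0.62 and 0.48 in wildtype and 0.66, 0.77, 0.79 and 0.71 in null. Only wildtype 2 reached the null range, and the difference of 0.25 (SE 0.13, adjusted p 0.620) was 0.13 without wildtype 1. Pcna, the sliding clamp of DNA polymerase, read -0.50, 0.03, 0.37 and 0.32 in wildtype and 0.16, 0.13, 0.33 and 0.39 in null. Its difference of 0.20 (SE 0.18, adjusted p 0.765 by limma) came to 0.016 without wildtype 1, the array on which it lay lowest. The probes of Pcna gave 0.34 and 0.060. The remaining 7 replication genes had differences from -0.01 for Mcm5 to 0.27 for Tyms, the thymidylate synthase gene. Tyms lay at -0.47 on wildtype 4 and 0.02 on wildtype 1, and differed by -0.0070 without the former and 0.16 without the latter.

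Mitosis genes held the largest differences toward null. Top2a, topoisomerase II alpha, which untangles sister chromatids, read -0.35, 0.31, 0.35 and 0.36 in wildtype and 0.50, 0.61, 0.66 and 0.65 in null. The groups do not overlap, the lowest null array being above the highest wildtype array, with a difference of 0.44 (SE 0.16, adjusted p 0.558 by limma), 0.26 without wildtype 1, and 0.51 and 0.18 on its probes. Mki67, a proliferation antigen that coats mitotic chromosomes, read -0.35, 0.56, 0.77 and 1.03 in wildtype and 1.08, 1.14, 0.52 and 1.01 in null. Its groups overlap, and the difference of 0.43 (SE 0.26, adjusted p 0.654) was 0.15 without wildtype 1.

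Cdc20 read -0.17, 0.22, 0.05 and -0.04 in wildtype and 0.22, 0.36, 0.48 and 0.44 in null. Null 1 and wildtype 2 meet, so the groups touch, and the difference was 0.36 (SE 0.12, adjusted p 0.553), 0.30 without wildtype 1. Kif23, a kinesin of the central spindle in cytokinesis, read 0.53, 0.39, 0.41 and 0.57 in wildtype and 0.77, 0.80, 0.94 and 0.54 in null, with a difference of 0.29 (SE 0.11, adjusted p 0.568). Its probes gave 0.48, 0.39 and 0.056, the last being the only one with values on all 8 arrays. Null 4 lies inside the wildtype range, and the other null arrays lie above it.

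Bub1b, the checkpoint kinase BubR1, read 0.38, 0.25, 0.22 and -0.22 in wildtype and 0.47, 0.42, 0.81 and 0.32 in null. Wildtype 1 overlaps the lowest null array, and the difference was 0.35 (SE 0.15, adjusted p 0.594), 0.22 without wildtype 4 and 0.42 without wildtype 1, and 0.17 and 0.42 on its probes. Tacc3, which holds microtubules of the spindle together, read 0.13, 0.58, 0.24 and 0.56 in wildtype and 0.49, 0.47, 0.74 and 0.71 in null. Its groups overlap at a difference of 0.22 (SE 0.13), 0.14 without wildtype 1, and 1 of its 4 probes gave -0.05. Cenpa, the histone of centromeres, went the other way, with 0.31, 0.39 and 0.58 on wildtype arrays 2 to 4, no value on wildtype 1, and 0.33, 0.14, 0.12 and 0.29 in null. Only null 1 enters the wildtype range, and the difference was -0.21 (SE 0.12, adjusted p 0.647), -0.13 without wildtype 4. The other 14 mitosis genes lay between -0.17 for Birc5 and 0.24 for Hmgb2.

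Among cyclins and kinases, 3 of 9 had groups apart, all upward, 33.3% against 2.00% of all features. Ccnd3, cyclin D3, which opens the G1 phase, read 0.22, 0.62, 0.24 and 0.47 in wildtype and 0.76, 0.79, 0.66 and 0.79 in null. Every null array lies above every wildtype array, the difference was 0.36 (SE 0.12, adjusted p 0.553 by limma), and both of its probes gave 0.36. Ccnd2, cyclin D2, read 0.07, 0.26, 0.41 and 0.42 in wildtype and 0.64, 0.44, 0.55 and 0.69 in null. The groups are apart by a little, the difference was 0.29 (SE 0.12, adjusted p 0.568), and its 6 probes ran from 0.01 to 0.62.

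Ccnd1, cyclin D1, gave no such order, with 0.17, 0.00 and 0.30 on wildtype arrays 2 to 4, no value on wildtype 1, and 0.35, -0.11, -0.09 and 0.48 in null. Its groups overlap fully, its probes gave -0.22 and 0.22, and the difference was near 0 with an SE of 0.17. Cdk4, the kinase partner of the D cyclins, read -0.10, 0.81, 0.65 and 0.40 in wildtype and 0.70, 0.70, 0.90 and 0.77 in null. Wildtype 2 lies inside the null range, and the difference of 0.33 (SE 0.18, adjusted p 0.620) was 0.15 without wildtype 1.

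Cdk1 and its partner cyclin A2 were both highest on null 3. Cdk1 read 0.59, 0.73, 0.37 and 0.82 in wildtype and 0.74, 0.89, 1.29 and 0.86 in null, and Ccna2 read 0.70, 0.70, 0.42 and 0.95 in wildtype and 0.84, 0.84, 1.46 and 0.85 in null. Both overlap between genotypes, and the differences of 0.32 (SE 0.15) and 0.31 (SE 0.17) were 0.20 and 0.15 without that array. Probes gave 0.36 and 0.15 for Cdk1, and 0.15, 0.21 and 0.56 for Ccna2. Ccnb2, cyclin B2, read 0.20, 0.15, 0.12 and 0.19 in wildtype and 0.28, 0.25, 0.48 and 0.39 in null. Its groups are apart with a small difference of 0.18 (SE 0.10, adjusted p 0.620). Cdk2, the kinase of S phase entry, differed by 0.15 and Ccne1, cyclin E1, by -0.18, both with overlap.

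Cdkn1a differed the most downward and is the only inhibitor measured. It read 0.29, 0.31, 0.30 and 0.70 in wildtype and -0.20, -0.03, 0.02 and 0.11 in null. Every null array lies below every wildtype array, and wildtype 4 lies far above the other 3. The difference was -0.43 (SE 0.13, adjusted p 0.550 by limma), -0.64 and -0.28 on its probes, and -0.33 without wildtype 4.

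**Figure D4:**
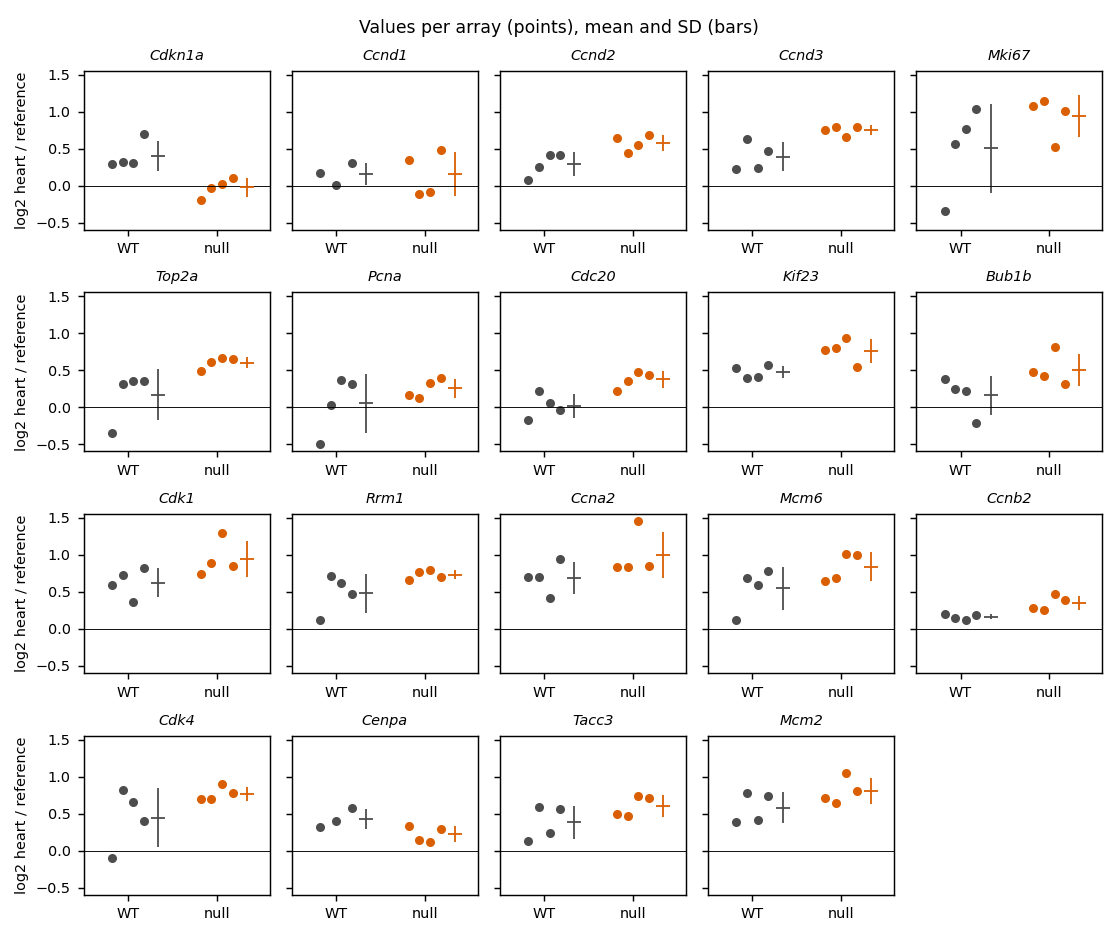
Each panel gives 1 named gene: points are the log2 ratio of heart over reference on each wildtype (grey) and null (orange) array, and bars the mean and SD. Null points lie wholly above wildtype points for Ccnd3, Top2a, Ccnd2 and Ccnb2 and wholly below for Cdkn1a.

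**Figure D5:**
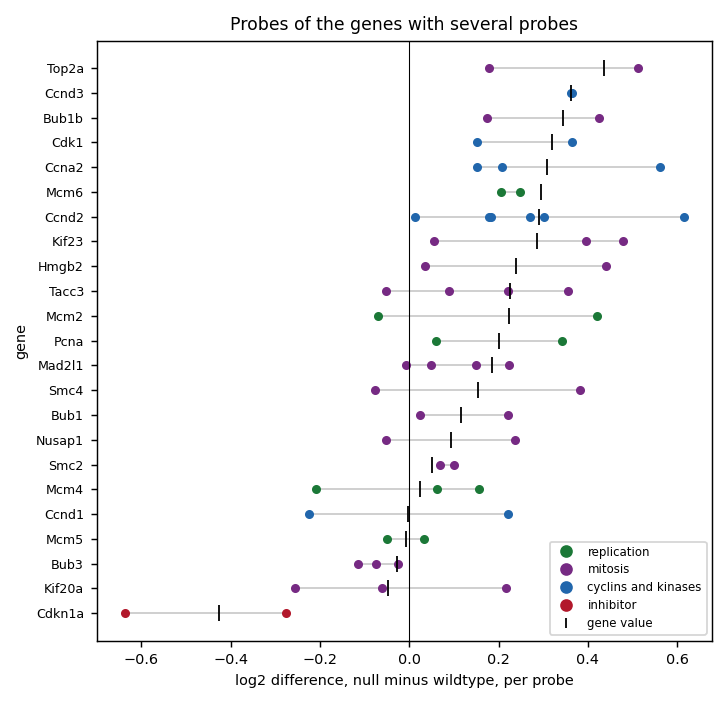
Points are null minus wildtype log2 differences of each probe for the 23 genes with several probes, and black ticks the gene's value. In 14 genes all probes share a sign, in 9 they do not, and the median range between probes of a gene is 0.33.

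Other genes of the same machinery were read from lists by role. In replication, 18 of 33 measured genes were higher, 54.5% against 40.9% of all features, with a median of 0.019 and 0 called. At an unadjusted p under 0.05, 1 was higher and 1 lower, 3.03% each, against 2.10% and 6.13% of all features. Pold1, the catalytic subunit of polymerase delta, differed by 0.34 (SE 0.13) and Orc6, of the origin recognition complex, by -0.34 (SE 0.13), each with groups apart. Groups lay apart upward for 1 of the 33 and downward for 1, 3.03% each, against 2.00% and 5.54% of all features. Pold1 had no value on wildtype 1 and null 4, and Orc6 none on wildtype 1. In mitosis, 37 of 57 were higher, 64.9% against 40.9%, with a median of 0.084 and 0 called. At that p 5 were higher, 8.77% against 2.10%, and 0 lower against 6.13%. Prc1, which bundles central spindle microtubules, differed by 0.44 (SE 0.15), Racgap1, the partner of Kif23, by 0.42 (SE 0.15), Ckap2 by 0.32 (SE 0.13) and Anapc1, a subunit of the anaphase ligase, by 0.31 (SE 0.11). Without null 3 the differences of Prc1, Racgap1, Ckap2 and Anapc1 were 0.31, 0.29, 0.23 and 0.27. Prc1 and Anapc1 have no overlap between genotypes, 3.51% of the 57 against 2.00% of all features.

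Among further cyclins, kinases and transition factors, 10 of 29 were higher, 34.5% against 40.9%, with a median of -0.058 and 0 called. At that p 1 was higher, 3.45% against 2.10%, and 2 lower, 6.90% against 6.13%. E2f3 differed by 0.47 (SE 0.19), Myc by -0.29 (SE 0.12), Tfdp2, the partner of E2F factors, by -0.39 (SE 0.17) and Mnat1, of the kinase-activating complex, by -0.51 (SE 0.23). Mnat1 lay at 1.46 on wildtype 1 and differed by -0.25 without it, and Tfdp2 by -0.26 without wildtype 3. Inhibitors and p53 genes had 5 of 17 higher and 12 lower, 70.6% against 59.1% of all features, with a median of -0.05 and 0 called. At that p 4 were lower, 23.5% against 6.13% of all features, and 0 higher against 2.10%. Tob2, an antiproliferative protein, read -0.03, 0.37 and 0.12 on wildtype arrays 2 to 4 and -1.07, -0.52, -0.63 and -0.33 in null, groups apart, at -0.79 (SE 0.18, adjusted p 0.420 by limma). Sesn1, a p53 target, differed by -0.76 (SE 0.24), by -0.53 without wildtype 1 and by -1.01 without wildtype 2. The checkpoint kinase gene Atr differed by -0.43 (SE 0.14) and Gadd45g by -0.35 (SE 0.16), or -0.18 without wildtype 3. Sesn1, Atr and Gadd45g each overlap between genotypes. Wildtype 1 had no value for E2f3, Tfdp2, Tob2, Atr and Gadd45g, nor null 1 for Tfdp2.

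Sarcomere genes had array medians of 0.81 to 1.19 over 5 genes, against -3.29 to -1.99 over 9 genes of other adult tissues. That order was used to set the direction of the ratio, so it is no check of the tissue. Gja1 checked the labels, at 1.04, 1.31, 0.99 and 0.79 in wildtype and -0.29, 0.25, 0.12 and 0.22 in null, a difference of -0.95 (SE 0.15, adjusted p 0.340 by limma). An exact two-sided permutation test gave p = 0.0286, the smallest that 70 assignments allow. Whether its probe lies in the deleted part is not known here. Markers of other cells were counted by sign, beside 40.9% of all features higher and 59.1% lower. In null, 7 of 8 erythroid markers were higher, with means of -0.56 to 0.03 on wildtype and -0.13 to 0.03 on null arrays. That count was 5 of 8 without wildtype 4, the array at -0.56. Endothelial markers were higher in 6 of 7, with means of 0.40 to 0.91 and 0.64 to 0.79. Fibroblast markers were higher in 5 of 5, with means of 0.28 to 0.67 and 0.45 to 0.78, but in 2 of 5 without wildtype 1. Lower in null were 5 of 7 macrophage and neutrophil, 4 of 5 liver and 3 of 3 smooth muscle markers. The smooth muscle differences were small, -0.098 to -0.020, with a median of -0.026 against -0.039 for all features. The exception in liver was Afp, alpha-fetoprotein, at 2.28, 2.07, 2.29 and 2.12 in wildtype and 2.59, 2.53, 2.33 and 2.58 in null, groups apart, at 0.32 (SE 0.11, adjusted p 0.553 by limma). All 3 lung markers were lower, each with groups apart, against 5.54% of all features apart in that direction. The array means over these markers were -2.48 to -1.85 on wildtype and -3.18 to -2.82 on null arrays. Among them, Cbr2 had no value on null 2. Only 2 of 10 heart muscle markers had values, and 0 of 6 lymphocyte markers. Both heart muscle markers were lower in null, with means of 1.02 to 1.41 on wildtype and 0.72 to 1.31 on null arrays. Myl7 differed by -0.21 (SE 0.24) with overlap, and Pln by -0.19 (SE 0.10) with groups apart. The part of these cells in the cell cycle values was not tested.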

How the data were processed

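Per the labels, cDNA of 8 pools of neonatal hearts was hybridised with 1 common reference, with the same dyes on each array. The authors deposited log ratios per spot, and no background correction, filter or scaling is given in the sources used here. The deposited values behave as log2: of 31304440 pairs of spots in the same block of 598 rows, read as base 2, 8347 had a ratio of whole numbers (at most 120, tolerance 1.5e-09), and 269 and 863 did so as base e and base 10. Heart was taken as the numerator because sarcomere genes lay above genes of other adult tissues on 8 of 8 arrays.

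Each array was centred on its median. Of 28704 probes, 18511 had 1 symbol in the platform annotation, 937 several and 9256 none here. Several probes of a gene were joined by fitting probe and array effects, so that a gene value can lie outside its probes' values where they miss different arrays. Null minus wildtype was fitted in limma 3.58.1 (R 4.3.3) over all features, with Benjamini-Hochberg adjustment and a threshold of 0.05; every adjusted p is from it. The precision is limited by 8 arrays. Each pool had 1 array, so p-values reflect how pools of hearts and arrays vary together. Members and lists were chosen with earlier results of these data known. Values on every array are given for the inhibitor, D cyclins, Mki67, Top2a, Pcna and the 12 other members with the smallest p; in the other lists, differences are given for up to 4 genes by p, and array values for Tob2. Tyms, Tob2's arrays and Afp were picked after their values were seen. The fit was tested on simulated data. Promoters are RefSeq, GRCm38.p6. Figures used Python 3.11.15 and matplotlib 3.10.9.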

Additional observations from a re-analysis of the deposited data

Results flagged for a closer look

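Among 89 groups of 4 arrays tested for 1 value standing far from the rest, 8 stood out, and chance gives about 1 in 20. On wildtype 1, Top2a lay at -0.35 with the others at 0.31 or higher, Bub3 at -0.23 with the others at 0.04 or higher, and Plk1 at 0.66 with the others at -0.12 or lower. Plk1 was also apart on null 1, at -0.29 against 0.07 or higher. On null 3, Mad2l1 lay at 0.88 against at most 0.63, and Ccna2 at 1.46 against at most 0.85. Nusap1 on wildtype 2 lay at 0.53 against at most 0.34, and Cdkn1a on wildtype 4 at 0.70 against at most 0.31.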

How the results depend on the processing

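Adjusted p-values by limma of the named cell cycle genes stayed above the threshold under each setting run, with 0.274 (Cdkn1a, array weights) the lowest, and 0 genes were called; without adjustment 972 features and 7 of the 42 genes lay under 0.05. Of 417 named-gene values under other settings, 409 kept their direction. Some of these settings change only the standard errors, and those on joining probes leave genes of 1 probe unchanged. The sign could not reverse in such cases, and 12 of the genes were chosen by small p. Ccnd1 reversed to 0.22 with its probe of fewest missing values, and again with that probe alone. Tacc3 at -0.051 and Mcm2 at -0.070 reversed with 1 of their probes. As arrays were left out, Ccnd1 ran from -0.11 to 0.088 around its difference of -0.0017, and reversed in 4 settings. Without centring, medians were 0.026 for all 42 genes, 0.064 for replication, -0.042 for mitosis and 0.13 for cyclins and kinases. With array weights they were 0.097, 0.081, 0.098 and 0.16. The cyclin median was 0.21 with each probe alone and 0.20 after subtracting the trend on the mean ratio, a choice made after seeing the data. Leaving out arrays, medians ran from 0.13 to 0.20 for all genes, 0.13 to 0.25 for replication, 0.089 to 0.19 for mitosis and 0.15 to 0.34 for cyclins and kinases. Same-numbered arrays correlated at -0.25 to -0.01 after group means were removed. With so few arrays this cannot decide whether the numbers mark a shared litter or day, which the labels do not say. With the replicate block 0 genes were called, and the median over all genes was 0.17. Counts without wildtype 1 were also chosen after seeing the data: 5 genes were then wholly higher in null (Bub1b added), 11.9% against 3.06% of features. With 4 pools per genotype, small differences cannot be resolved.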
